A study of Mus musculus with 12 samples.

Results

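The T cell receptor (TCR) chains of CD8+ T cells from the tumor and from the spleen of IL-10-Fc-treated mice were compared. The comparison used 2 of the 12 libraries of the series, chosen by their labels and not by any measured value. They listed 93553 clonotypes in tumor and 163759 in spleen, of 1502315 in the whole series. A clonotype is defined here by its chain, its V and J regions and the nucleotides of its CDR3, the loop that joins V to J.

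Wild-type mice bearing tumors of the HNSCC/Q1-2 model, a head and neck cancer line of C57BL/6 mice, received IL-10-Fc, the cytokine IL-10 fused to an antibody Fc part, in 3 doses given 3 days apart. The methods of the study give 6 to 8 weeks as the age of its mice. The labels give 30 mg/kg as the equivalent dose of every agent, and the methods of the study give 20 mg/kg for IL-10-Fc itself. CD8+ cells were isolated with microbeads, the samples of 3 mice were mixed, and 100 ng of RNA made 1 library per tissue. Whether the 3 mice were the same ones for tumor and spleen is not stated. The spleen, tumor and tumor-draining lymph node (tdLN) libraries of mice given control IgG, αCSF1R (an antibody to the macrophage receptor CSF1R) or BF10 (that antibody fused to IL-10), and the tdLN library of the IL-10-Fc mice, serve below only as a yardstick. The labels of the tumor and spleen libraries name CD8 and those of the tdLN libraries do not, though the study describes its tdLN cells as CD8+ as well.

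Each αβ T cell carries a TCR whose α chain is joined from a V and a J segment and whose β chain is joined from a V, a D and a J segment. Bases are trimmed and added at the joints, so the CDR3 that spans them differs from cell to cell and is passed on when a T cell divides. Some CDR3s need few or no added bases, and these recur in unrelated animals. A CDR3 with many added bases that is found in separate tissues of an animal is more often a trace of 1 dividing clone.

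There was 1 library a side, so no p-value is given for any difference between the tissues. Intervals are 95% intervals and cover counting error only, except those of ratios of mean clonotype size. These cover the spread between clonotypes of 1 library, and no interval covers the spread between mice. The amount of a clonotype is its number of UMIs (unique molecular identifiers, random tags that mark single RNA molecules) with at least 3 reads. More cells of a clone and more receptor RNA per cell cannot be told apart by such a count, and α and β chains of a cell are not paired.

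The largest tumor clonotypes of each chain are shown with their CDR3 sequence because they were abundant in tumor and mostly rare in or absent from spleen. Lower case marks bases that continue the germline V from the left or the germline J from the right, capitals mark the bases between them that match neither (D bases of the β chain included), and germline bases are those of GRCm38. Clonotypes are named by their V and J segments.
Trbv14-Trbj2-1 clonotype: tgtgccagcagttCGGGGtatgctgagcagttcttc
Trbv16-Trbj2-7 version 1: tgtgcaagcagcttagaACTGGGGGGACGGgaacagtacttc
Trbv16-Trbj2-7 version 2: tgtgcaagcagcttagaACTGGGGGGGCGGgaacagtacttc
Trbv16-Trbj2-7 version 3: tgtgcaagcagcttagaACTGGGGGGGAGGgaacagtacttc
Trbv16-Trbj2-7 version 4: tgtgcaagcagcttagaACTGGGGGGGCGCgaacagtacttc
Trbv26-Trbj1-4 clonotype: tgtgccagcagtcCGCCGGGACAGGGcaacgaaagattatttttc
Trbv17-Trbj1-1 clonotype: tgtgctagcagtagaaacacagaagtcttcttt
Trav7d-2-Traj22 clonotype: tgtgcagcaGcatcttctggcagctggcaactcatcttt
Trav7n-4-Traj22 clonotype: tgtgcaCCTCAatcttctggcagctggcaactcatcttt
Trav14-Traj22 clonotype (Trav14-2 or Trav14n-2): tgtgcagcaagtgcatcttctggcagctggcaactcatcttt
Trav5d-4-Traj53 clonotype: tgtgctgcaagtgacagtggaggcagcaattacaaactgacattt

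Among these, the 4 versions of the Trbv16-Trbj2-7 chain differ by 1 or 2 bases inside the capitals and spell the same protein. The Trbv17-Trbj1-1, Trav14-Traj22 and Trav5d-4-Traj53 clonotypes have no capital, so that germline V and J bases alone spell them. On GRCm38, Trbv16 lies at chr6:41151740-41152230 and Trbj2-7 at chr6:41543810-41543856, both on the plus strand. Trav7d-2 lies at chr14:52683964-52684472 and Traj22 at chr14:54197248-54197307, also on the plus strand, and the annotation lists all 4 as V or J gene segments of the TCR loci.

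The tumor library held 38233 TRAC (α chain) clonotypes with 98821 UMIs and 54779 TRBC (β chain) clonotypes with 130104 UMIs. The spleen library held 62175 TRAC clonotypes with 121278 UMIs and 100671 TRBC clonotypes with 166869 UMIs. A tumor β clonotype had 2.38 UMIs on average and a spleen β clonotype 1.66, and clonotypes of 1 to 4 UMIs made up 93.3% of the tumor and 98.3% of the spleen β list. The αCSF1R spleen lay beyond the tumor (2.40 UMIs, 91.8%), and the control IgG (1.92, 96.2%) and BF10 spleens (1.74, 98.2%) did not. Reads per UMI differed too: 50.9% of β UMIs had at least 7 reads in tumor and 39.3% in the IL-10-Fc spleen. In the αCSF1R, control IgG and BF10 spleens this was 57.5%, 42.6% and 41.0%. Chains of γδ T cells, which CD8 selection does not aim at, took 0.873% of the UMIs of the tumor library and 0.677% of those of the spleen library, against 1.79% to 2.30% in the other spleens and 0.898% (BF10) to 8.93% (αCSF1R) in the other tumors. The invariant chain of NKT cells, Trav11 joined to Traj18, took 0.0304% of tumor and 0.0511% of spleen TRAC UMIs, against 0.396% to 0.586% in the other 3 spleens. That of MAIT cells, Trav1 joined to Traj33, had 7 tumor and 13 spleen UMIs. The spleen library thus stood below the other 3 spleens in its γδ and NKT chains, and the tumor library was below those 3 spleens too. The other tumors had NKT shares of 0.0178% (BF10), 0.0423% (αCSF1R) and 0.114% (control IgG), on both sides of it.

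The tumor library also stood apart from 2 of the other 3 tumor libraries in its large clonotypes. β clonotypes of at least 20 UMIs took 7.29% of its TRBC UMIs, against 59.4% in the control IgG tumor, 65.6% in the αCSF1R tumor and 1.75% in the BF10 tumor. In the IL-10-Fc spleen they took 0.0689%, and in the other spleens 0.282% (control IgG), 1.06% (αCSF1R) and 0.702% (BF10).

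Segment use of the tumor library was close to that of the IL-10-Fc spleen, more so by clonotypes than by UMIs. Circulating T cells inside the tumor sample and T cells of the tumor tissue cannot be told apart in these files, which holds for the spleen matches below as well. Distance in use is the sum of the absolute differences between shares, divided by 2 (in percentage points), and it was taken over V and over J of both chains by UMIs and by clonotypes. In 8 of these 8 measures the IL-10-Fc spleen was the closest of the other 11 libraries to the IL-10-Fc tumor. For β V segments counted by clonotype the distance was 1.03 points, against 1.87 to the BF10 tumor, 3.02 to 7.32 to the other 3 spleens and 11.3 to the IL-10-Fc tdLN. For β J segments it was 0.623 points, for α V subgroups 1.249 and for α J segments 1.77. By UMIs the 4 distances were 3.09 (β V), 2.07 (β J), 3.02 (α V) and 3.77 points (α J). The α V distance by UMIs hardly differed from that to the control IgG spleen, which was 3.02 points as well. By UMIs the IL-10-Fc spleen lay 3.41 to 8.21 points (β V) and 1.07 to 2.47 (β J) from the other 3 spleens. For α these distances between spleens were 2.36 to 4.46 (V) and 2.08 to 2.72 points (J). The tumor was thus closer than the other spleens for β V, within their range for β J and α V, and beyond it for α J. By clonotypes it was closer than the other spleens in each class but α J, where they lay 1.71 to 2.08 points away.

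**Figure D1:**
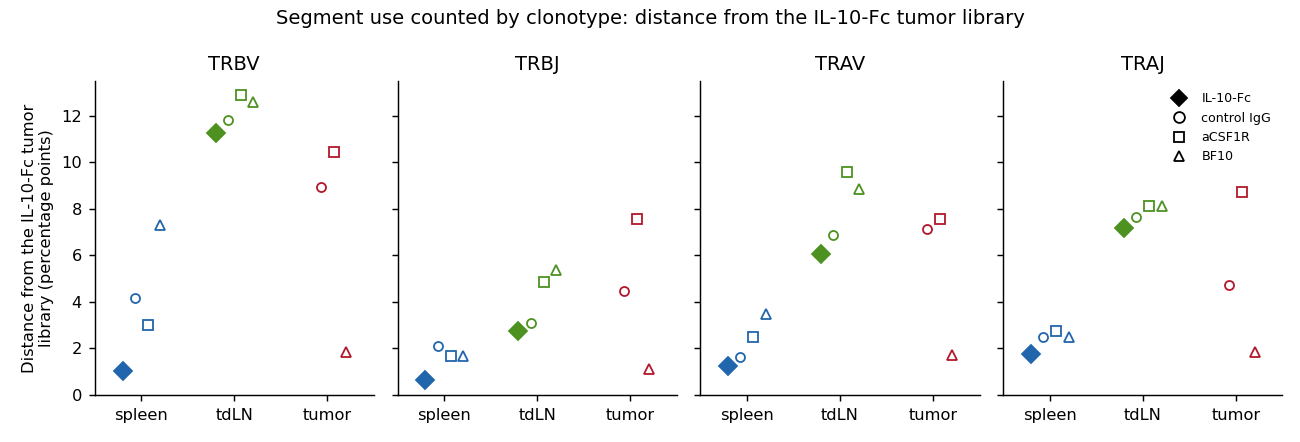
Distance in segment use between the IL-10-Fc tumor library and each of the other 11 libraries (y axis, percentage points, 1 panel per segment class, counted by clonotype), grouped by tissue and with 1 symbol per treatment. The filled blue diamond, the IL-10-Fc spleen, is the lowest point in each panel, at 1.03 points for TRBV and 0.623 points for TRBJ.

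Trbv29 shows this likeness. It made up 14.03% of tumor β clonotypes and 14.19% of those in the IL-10-Fc spleen, the largest V share in both libraries. In the other 3 spleens it made up 9.82%, 12.4% and 13.4%, and in the tdLN of the IL-10-Fc mice 8.38%. The BF10 tumor was at 14.03% too, and the control IgG and αCSF1R tumors were at 8.46% and 9.43%.

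A segment was called higher or lower in tumor where the larger of its 2 shares of UMIs was at least 25% above the smaller and the tumor share lay outside the range of the 4 spleens. No β V segment met this: 0 of 22 tested were called (0% of those tested), and 0 of 12 β J segments (0%). Most segments differed little, since the ratio of tumor to spleen ran from 0.833 (Trbv24) to 1.26 (Trbv26) among β V segments and from 0.888 (Trbj1-5) to 1.15 (Trbj1-6) among β J segments. The tumor share lay outside the range of the 4 spleens, at any ratio, for 9 of 22 β V segments (40.9%) and 4 of 12 β J segments (33.3%).

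The most used β segments moved by about 1 point. Trbv29 took 13.2% of tumor UMIs (interval 13.0% to 13.4%) and 14.2% of spleen UMIs, within the range of the 4 spleens. Trbv16 took 12.3% against 11.3%, above the 4 spleens, which ran from 10.4% to 11.3%. Trbj2-7, the leading J of both libraries, took 22.4% against 21.2%. Trbv26 had the largest ratio, 1.26 (1.20 to 1.31), with 3.23% of tumor and 2.58% of spleen UMIs, but the other spleens reached 3.41%. Its largest tumor clonotype, the one printed above, held 10.8% of its UMIs, and by clonotypes the ratio was 1.06. Trbv13-3 and Trbv12-1 were the next to fall short of spleen in points, at 4.60% against 5.06% and 4.66% against 5.13%, and among J segments Trbj2-5 was at 10.4% against 11.1%.

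Among α V subgroups, 1 of 19 was called (5.26%). This was Trav11, the V of the NKT chain, with 211 tumor and 336 spleen UMIs, or 0.214% against 0.277% (ratio 0.771, 0.649 to 0.915). The other 3 spleens were higher still, up to 0.809%. Counted by clonotype its ratio was 0.822 and 0 of 19 were called (0%). Trav7 had the largest difference in points, with 16.6% of tumor and 14.1% of spleen UMIs (ratio 1.18). A single clonotype, Trav7d-2-Traj22, held 12.0% of the Trav7 UMIs of the tumor, and Trav7 made up 14.6% of tumor and 14.5% of spleen clonotypes.

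Among α J segments, 4 of 41 were called (9.76%), 2 in each direction (4.88% each). Traj7 was higher in tumor, with 217 UMIs (0.220%) against 136 (0.112%), a ratio of 1.958 (1.58 to 2.43). A single clonotype held 93 of those 217 UMIs, and without the largest clonotype of each segment the ratio was 1.20. Traj53 stood just inside the threshold (interval of the ratio 1.15 to 1.36), with 1.15% against 0.918% of UMIs, and the Trav5d-4-Traj53 clonotype held 13.3% of its tumor UMIs. Counted by clonotype, Traj53 was slightly lower in tumor, at 0.981% against 0.996%.

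Traj58 and Traj5 were lower in tumor. Traj58, the most upstream J segment tested, took 0.610% of tumor and 0.810% of spleen UMIs (ratio 0.754, 0.681 to 0.834), and Traj5 took 0.509% and 0.661% (ratio 0.770, 0.689 to 0.860). Neither rested on a large clonotype, since the largest of either had 7 tumor UMIs. By clonotypes the Traj58 ratio was 0.790, and it was then the only 1 of 41 called (2.44%), while Traj5 was at 0.846.

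Traj33 (3.66% of tumor and 3.07% of spleen UMIs) was the next J segment above spleen in points, and Traj9 (3.36% and 3.87%) the lowest below it, neither past the threshold.

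Traj22 stood just outside the threshold at a ratio of 1.248 (1.22 to 1.28). It took 10.1% of tumor and 8.12% of spleen UMIs, the largest difference in points of any J segment, and the Trav7d-2-Traj22 clonotype alone held 19.7% of its tumor UMIs. Without the largest clonotype of each segment its ratio was 1.07, and by clonotypes it was 1.08, with 6.92% of tumor and 6.39% of spleen clonotypes. Grouped along the locus, the 12 upstream segments (Traj58 to Traj40) took 21.4% of tumor and 21.8% of spleen UMIs, the 16 middle segments (Traj39 to Traj21) 55.3% and 54.0%, and the 13 downstream segments (Traj18 to Traj2) 23.3% and 24.2%. The tumor share lay outside the 4 spleens, at any ratio, for 8 of 19 α V subgroups (42.1%) and 27 of 41 α J segments (65.9%).

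**Figure D2:**
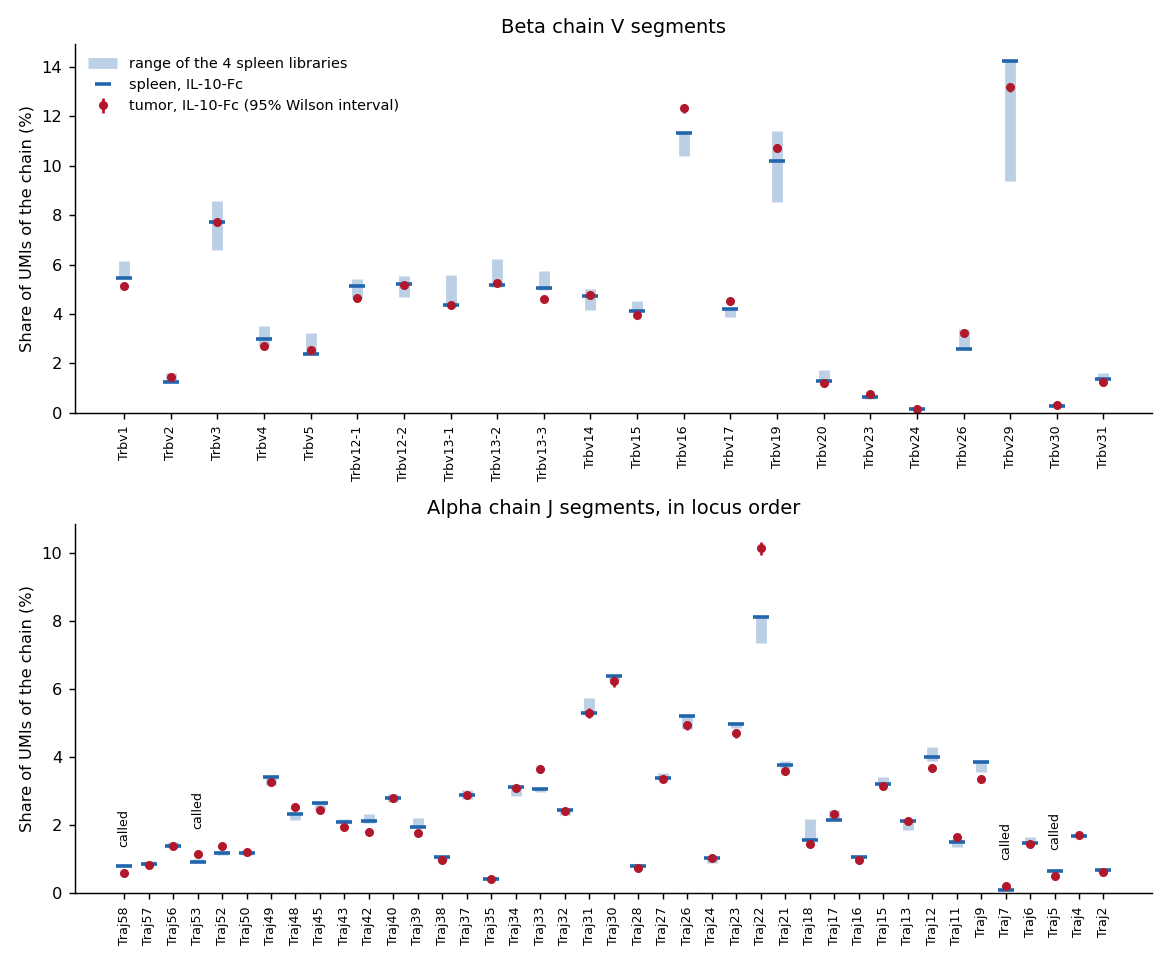
Share of the UMIs of the chain (y axis, percent) for each β V segment (upper panel) and each α J segment in locus order (lower panel). Red points are the tumor library with 95% Wilson intervals, blue dashes the IL-10-Fc spleen and pale bars the range of the 4 spleens; the 4 segments marked as called are Traj58, Traj53, Traj7 and Traj5, and Traj22 stands highest of all J segments at 10.1% in tumor.

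The mean CDR3 lengths of the tissues lay within a fraction of a residue of each other. The mean α CDR3 was 13.54 residues in tumor (SD 1.40 over 98788 UMIs) and 13.55 in spleen (SD 1.40 over 121239 UMIs), and the mean β CDR3 was 13.86 (SD 1.64) and 13.87 (SD 1.958). The differences were -0.00640 residues for α and -0.00651 for β, with standard errors over UMIs of 0.00600 and 0.00660. By clonotypes they were -0.00655 and -0.0179 residues.

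Some single lengths differed more by UMIs than by clonotypes. Others did not, such as α CDR3s of 12 residues, whose share differed by -0.221 points by UMIs and 0.455 by clonotypes. CDR3s of 13 residues, the length of the Trav7d-2-Traj22 clonotype, took 26.6% of tumor and 25.0% of spleen α UMIs, outside the 24.8% to 25.2% of the 4 spleens, but made up 24.2% of tumor and 24.5% of spleen clonotypes. β CDR3s of 14 residues, the length of the Trbv16-Trbj2-7 versions, took 31.8% and 31.1% of UMIs, and 30.8% of the clonotypes of either library. The few γ and δ chains were shorter in tumor by UMIs, at 13.73 against 13.96 residues for γ (1138 and 737 UMIs) and 17.6 against 18.0 for δ (873 and 1228 UMIs). By clonotypes the difference was -0.0339 residues for γ and -0.465 for δ, with standard errors over clonotypes of 0.121 and 0.204.

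Splitting the tumor clonotypes by whether the IL-10-Fc spleen listed the same clonotype left most of them without a match. For the α chain 5190 of 38233 tumor clonotypes were listed in spleen, or 13.6% (13.2% to 13.9%), with 22.4% of the UMIs. For the β chain 2773 of 54779 were listed, or 5.06% (4.88% to 5.25%), with 8.04% of the UMIs. Read the other way, 8.35% of spleen α and 2.75% of spleen β clonotypes were listed in tumor. Of the γ clonotypes 41 of 202 had a match (20.3%) and of the δ clonotypes 4 of 339 (1.18%).

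The spleens of the other treatments held part of the tumor clonotypes as well. At an equal number of UMIs from each spleen (150372 for β and 109939 for α), the IL-10-Fc spleen held 4.82% of tumor β clonotypes and the other spleens 3.57% (control IgG), 3.02% (αCSF1R) and 3.83% (BF10). The excess over the mean of those 3 was 1.39-fold by clonotypes and 1.92-fold by UMIs. For α the values were 13.2% in the IL-10-Fc spleen against 11.4%, 9.57% and 12.1%, an excess of 1.19-fold by clonotypes and 1.18-fold by UMIs. Equal UMIs are not equal numbers of clonotypes, and the IL-10-Fc spleen listed the most. It had 62175 α clonotypes against 51653, 40731 and 57954, and 100671 β clonotypes against 79715, 64394 and 86538. The shares of both chains fell in the order of these numbers, and how much of the excess goes with them was not tested. The 3 other spleens come from 3 separate mixes of mice, and for both chains the IL-10-Fc spleen lay above each of them. By clonotypes the γ and δ chains went the other way, with 0.838-fold and 0.748-fold, on 202 and 339 clonotypes. By UMIs γ was at 1.06-fold and δ at 0.800-fold.

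The BF10 tumor library shared fewer clonotypes with the IL-10-Fc tumor than the IL-10-Fc spleen did, and about as many as the spleens of the other treatments. At 124488 UMIs from each library it held 3.46% of the tumor β clonotypes, against 4.38% for the IL-10-Fc spleen, 2.84% to 3.51% for the other spleens and 3.77% for the IL-10-Fc tdLN. The other tdLN libraries held 2.88% to 3.78%. At 55901 UMIs it held 9.193% of the tumor α clonotypes, above the other 3 spleens (7.89% to 9.184%), against 9.92% for the IL-10-Fc spleen.

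Recurrence between mice differed by chain. Of the matched α clonotypes, 66.7% were also listed in at least 1 of the other 3 spleens and of the matched β clonotypes 43.9%. Of the 1201 tumor α clonotypes listed in all of the other 3 spleens, 82.0% (79.7% to 84.1%) were in the IL-10-Fc spleen as well, and of the 245 such β clonotypes 72.2% (66.3% to 77.5%). Of tumor clonotypes in none of the other 3 spleens, 5.77% of α and 3.09% of β were in the IL-10-Fc spleen. The IL-10-Fc tdLN listed 28.6% of tumor β clonotypes with a spleen match and 3.37% of those without, and 44.3% and 7.48% of the α clonotypes.

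Tumor clonotypes with a spleen match were larger than those without. Matched α clonotypes had 4.26 UMIs on average (median 3) and unmatched ones 2.32 (median 2), a ratio of 1.83 (1.53 to 2.20). Matched β clonotypes had 3.77 UMIs and unmatched ones 2.30, a ratio of 1.64 (1.373 to 1.9602), but both medians were 2. Clonotypes of a single UMI made up 25.0% of matched and 39.1% of unmatched α clonotypes, and 32.8% and 40.01% for β. The overlap of the sizes was wide, and large clonotypes were a small part of either set: 0.902% of matched and 0.115% of unmatched β clonotypes had at least 20 UMIs.

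The share with a match rose with clonotype size in the tumor up to 49 UMIs, and for β chains the difference from the other spleens was widest among the large clonotypes. Of β clonotypes of a single UMI 4.19% were matched (3.93% to 4.46%), and of those of 10 to 19 UMIs 17.8% (13.1% to 23.7%). In the other 3 spleens at equal UMIs these shares were 2.73% to 3.25% and 10.2% to 12.1%, so they were higher for the larger clonotypes there too. Of the 42 β clonotypes of 20 to 49 UMIs, 12 were in the IL-10-Fc spleen, and the other 3 spleens listed 0 (control IgG), 0 (αCSF1R) and 1 (BF10). Of the 17 of 50 to 99 UMIs the IL-10-Fc spleen listed 3 and the others 2, 1 and 1, a smaller gap. Of the 26 of at least 100 UMIs, 10 were in the IL-10-Fc spleen, and the other 3 listed 2, 1 and 0. These bins hold few clonotypes, and the interval of the last share, 38.5%, runs from 22.4% to 57.5%.

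α chains behaved differently. Of the 78 α clonotypes of 20 to 49 UMIs, 54 were in the IL-10-Fc spleen (69.2%), but the other 3 spleens at equal UMIs held 57.7% to 61.5% of them. Only from 50 to 99 UMIs did the spleens part, with 15 of 26 in the IL-10-Fc spleen and 5, 6 and 5 in the others. Of the 15 of at least 100 UMIs, 4 were matched (26.7%, 10.9% to 52.0%) and the other spleens listed 4, 3 and 6.

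**Figure D3:**
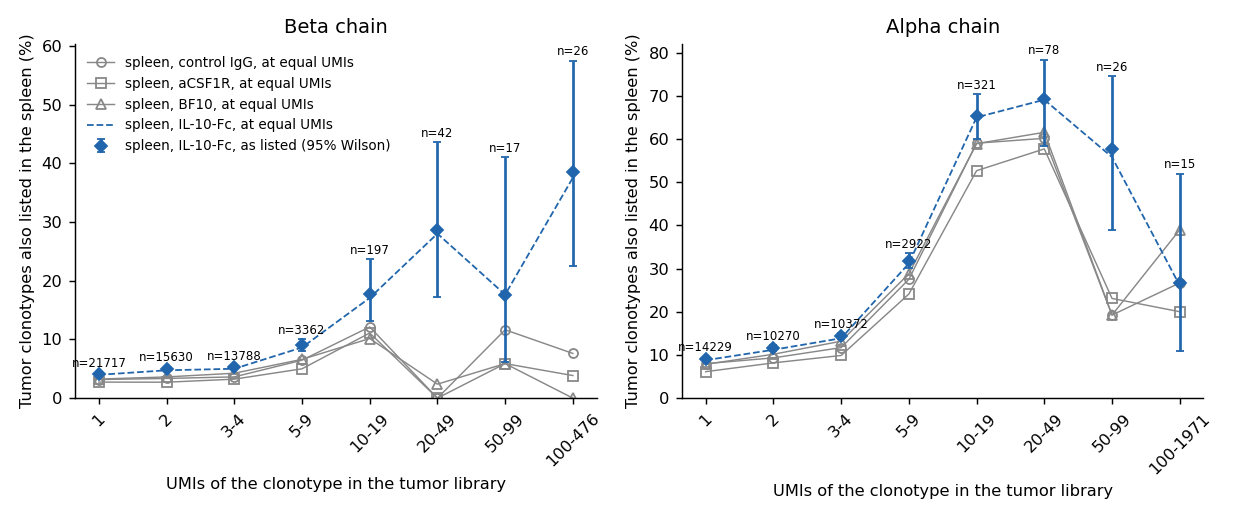
Share of tumor clonotypes also listed in a spleen (y axis, percent) by the number of UMIs of the clonotype in the tumor (x axis), for β and α chains. Blue diamonds are the IL-10-Fc spleen with 95% Wilson intervals, the dashed line the same at equal UMIs and grey lines the spleens of the other 3 treatments; from 20 UMIs the β diamonds (28.6%, 17.6% and 38.5%) stand above every grey point, while the α curves stay close up to 49 UMIs.

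A large clonotype in tumor was rarely large in spleen when it was a β chain. The 25 matched β clonotypes of at least 20 tumor UMIs had a median of 3 UMIs in spleen, and 2 of them had at least 10. The 73 matched α clonotypes of that size had a median of 18 spleen UMIs, and 50 of them had at least 10. Seen from all 85 β clonotypes of at least 20 tumor UMIs, 55 were listed in the IL-10-Fc tdLN, 25 in spleen and 22 in no other library. The 26 of at least 100 UMIs had 6998 UMIs in tumor, 559 in tdLN and 27 in spleen. Of these, 22 were in the tdLN, 10 in the spleen, each of those 10 also in the tdLN, and 4 in no other library of the 12.

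CDR3s with a spleen match were closer to germline. Untemplated bases are CDR3 bases that continue neither the germline V nor the germline J, and they could be counted for 99.8% of α and 99.9% of β clonotypes. Matched α clonotypes had 2.13 of them on average (SD 2.29) and unmatched ones 4.06 (SD 3.85), a difference of -1.93 (SE 0.0382 over clonotypes). Matched β clonotypes had 7.26 (SD 3.84) and unmatched ones 10.4 (SD 5.20), a difference of -3.15 (SE 0.0763). CDR3s with no untemplated base made up 28.4% of matched and 7.25% of unmatched α clonotypes, and 3.35% and 0.281% of the β clonotypes. The distributions overlapped over most of their range. Counts of 20 or more were found in 363 unmatched and 0 matched α clonotypes, and in 1015 and 4 β clonotypes. How much of the differences rests on these was not tested. The 2 libraries as wholes did not part in this measure, at 3.797 (tumor) and 3.76 (spleen) bases for α and 10.252 and 10.249 for β.

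The difference depended on size for the β chain. Matched β clonotypes of a single tumor UMI had 7.33 untemplated bases and unmatched ones 10.7, but among those of at least 20 UMIs the means were 9.80 (n = 25, SD 4.69) and 10.5 (n = 60, SD 3.89), a difference within the spread of either set. Matched α clonotypes of at least 20 UMIs kept a low mean of 1.55 (n = 73), against 3.89 (n = 44) in unmatched ones, and 49.3% of them had no untemplated base.

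**Figure D4:**
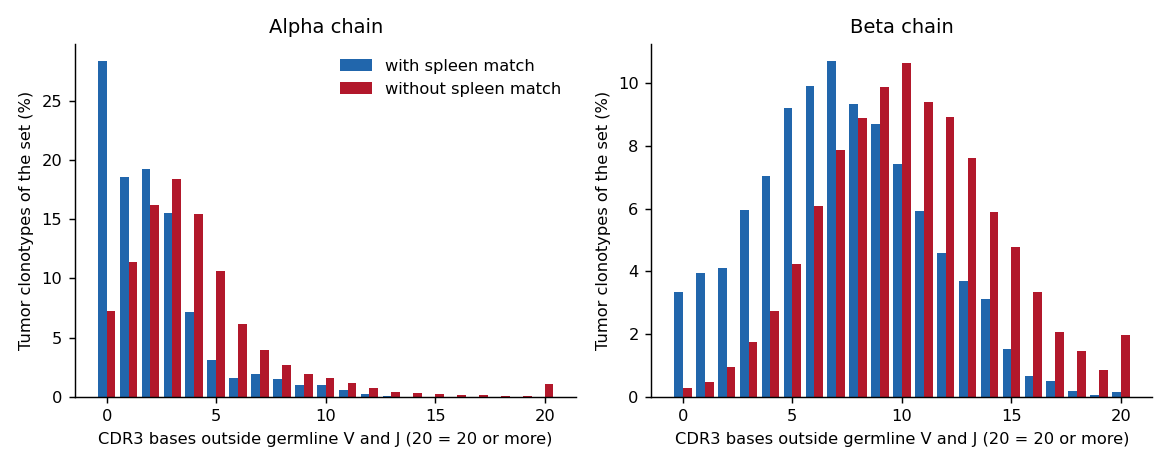
Distribution of the number of CDR3 bases outside germline V and J (x axis; 20 stands for 20 or more) among tumor clonotypes with (blue) and without (red) the same clonotype in spleen (y axis, percent of the set). For α the matched set peaks at 0, with 28.4%, and for β it is shifted to the left of the unmatched set, with means of 7.26 and 10.4.

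Matched clonotypes used some segments more than unmatched ones. Trbv29 made up 20.8% of matched and 13.7% of unmatched β clonotypes, Trbv16 16.7% and 12.0%, and Trbj2-7 29.0% and 21.1%. Trbv31 was at the other end, with 0.361% and 1.48%, and 10 of its 782 clonotypes matched. Among α chains Traj12 (5.68% against 3.15%), Traj22 (11.1% against 6.26%) and Traj30 (8.77% against 5.33%) were more common among matched clonotypes. Traj2 (0.173% against 0.823%) and Trav5 (0.963% against 3.03%) were less common. Matched CDR3s were also shorter, at 13.4 against 13.6 residues for α and 13.2 against 13.9 for β.

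The largest β clonotypes of the tumor were absent from or rare in the spleen. The 10 largest held 3.02% of tumor TRBC UMIs (3927 UMIs), and together they had 15 spleen UMIs. By threshold, 26 tumor and 0 spleen β clonotypes had at least 100 UMIs, and 85 and 5 had at least 20. The IL-10-Fc spleen had the fewest of the spleens. The control IgG, αCSF1R and BF10 spleens had 11, 34 and 22 of at least 20 UMIs, and 1, 2 and 1 of at least 100. The largest spleen clonotype, with Trbv14 and Trbj2-4, had 27 UMIs there and 9 in tumor.

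The Trbv14-Trbj2-1 clonotype led with 476 tumor UMIs, or 0.366% (0.334% to 0.400%), and 0 of 166869 in spleen, which allows a share of up to 0.00180% there. It was at least 204-fold higher in tumor, taking 3 UMIs as the floor of the spleen library. It had 21 UMIs in the IL-10-Fc tdLN and was in no other library. The Trbv26-Trbj1-4 clonotype had 453 tumor UMIs and 0 in spleen, at least 194-fold higher, and was listed in no other library of the series. A clonotype of Trbv5 and Trbj2-3 had 379 tumor UMIs and was likewise listed in that library alone.

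A clonotype of Trbv19 and Trbj1-2 had 399 tumor UMIs and one of Trbv13-2 and Trbj2-7 had 365, neither with a spleen UMI, and the IL-10-Fc tdLN held 17 and 4. One of Trbv13-1 and Trbj1-6 had 325 tumor UMIs, 26 in tdLN and 1 in spleen, a ratio of shares of 417 (58.5 to 2968). The largest matched β clonotype outside the leading 10, of Trbv19 and Trbj2-1 with 19 untemplated bases, had 288 tumor, 15 tdLN and 2 spleen UMIs.

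The Trbv17-Trbj1-1 clonotype differed from these in being shared widely. It had 384 tumor and 6 spleen UMIs, a ratio of shares of 82.1 (36.6 to 184), and 95 in the IL-10-Fc tdLN. With no untemplated base it was listed in 11 of the 12 libraries, and it was large in the other tumors as well, with 924 UMIs (control IgG), 233 (αCSF1R) and 199 (BF10). The other 3 spleens held 1, 3 and 0 UMIs, so it was high in each of the 4 tumors and low in each of the 4 spleens.

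The Trbv16-Trbj2-7 chain was present in the tumor as several large nucleotide versions. The 4 printed above had 468, 352, 326 and 285 tumor UMIs, and 3, 5, 0 and 2 in the IL-10-Fc spleen. In the IL-10-Fc tdLN they had 64, 7, 10 and 153 UMIs, so the version order there was not that of the tumor. The remaining 10 versions had 16 UMIs in all, at most 4 each, and each was 1 base from a larger version.

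Over its 14 versions this CDR3 protein sequence held 1447 UMIs, or 1.11% of tumor TRBC UMIs (1.06% to 1.17%), and 14 UMIs in spleen, or 0.00839% (0.00500% to 0.0141%). The other tumors held 358 UMIs (BF10), 339 (αCSF1R) and 2 (control IgG), and 2, 1 and 0 UMIs were in the control IgG, αCSF1R and BF10 spleens. Version 3 was listed with 55 UMIs in the BF10 tumor and 7 in the BF10 tdLN, and version 4 with 5 and 29 UMIs. Version 2 had 2 UMIs in the BF10 tumor and 1 in the control IgG tdLN, while version 1 was in no library of another treatment. Its last 8 residues, singled out after their values were seen, were shared by a Trbv3 clonotype with 289 tumor and 0 spleen UMIs. CDR3s with that ending took 1.501% of tumor and 0.144% of spleen TRBC UMIs, and 0.212% and 0.157% of clonotypes.

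Among α chains the leading clonotype stood far above the rest. The Trav7d-2-Traj22 clonotype had 1971 tumor UMIs, or 1.99% (1.91% to 2.08%), and 8 in spleen, a ratio of 302 (151 to 605). It had 96 UMIs in the IL-10-Fc tdLN. With 1 untemplated base it was listed in 11 of the 12 libraries, with 12, 44 and 8 UMIs in the other spleens and 5, 0 and 17 in the other tumors. These values hold for the listing under Trav7d-2 alone. Over all V regions and nucleotide versions with Traj22, its CDR3 protein sequence had 2116 UMIs in tumor and 156 in the IL-10-Fc spleen. They lay in 40 tumor and 45 spleen clonotypes. The other spleens held 136 to 181 UMIs of it and the other tumors 8 to 237.

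The Trav7n-4-Traj22 clonotype, with the same J segment, had 403 tumor and 0 spleen UMIs and was otherwise found in the IL-10-Fc tdLN alone, with 21 UMIs. A clonotype of Trav3n-3 and Traj33 had 268 tumor, 28 tdLN and 0 spleen UMIs. The Trav5d-4-Traj53 clonotype had 151 tumor and 0 spleen UMIs, and reached 2296 in the control IgG tumor, 52 in the αCSF1R tumor and 19 in the BF10 tumor. Its CDR3 protein sequence was not absent from the IL-10-Fc spleen. Listed there under another V region or nucleotide sequence, it was the largest Traj53 clonotype, with 14 UMIs. Of the 10 leading α clonotypes 3 were in the IL-10-Fc spleen and 8 in the tdLN.

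The Trav14-Traj22 clonotype was the exception among the leading α clonotypes, with 176 tumor and 232 spleen UMIs (ratio of shares 0.931, 0.766 to 1.13). It led the spleen library, was spelled by germline bases alone and was in all 12 libraries, with 185 to 209 UMIs in the other 3 spleens. The same nucleotide CDR3 is listed under several Trav14 copies, and the other 3 listings among the spleen's largest had 163, 125 and 124 spleen UMIs. Traj22 chains with the last 10 residues of both the Trav7d-2-Traj22 and the Trav14-Traj22 clonotype took 5.25% of tumor and 3.56% of spleen TRAC UMIs. Without the CDR3 protein sequence of the Trav7d-2-Traj22 clonotype the order turned, at 3.11% and 3.44%.

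**Figure D5:**
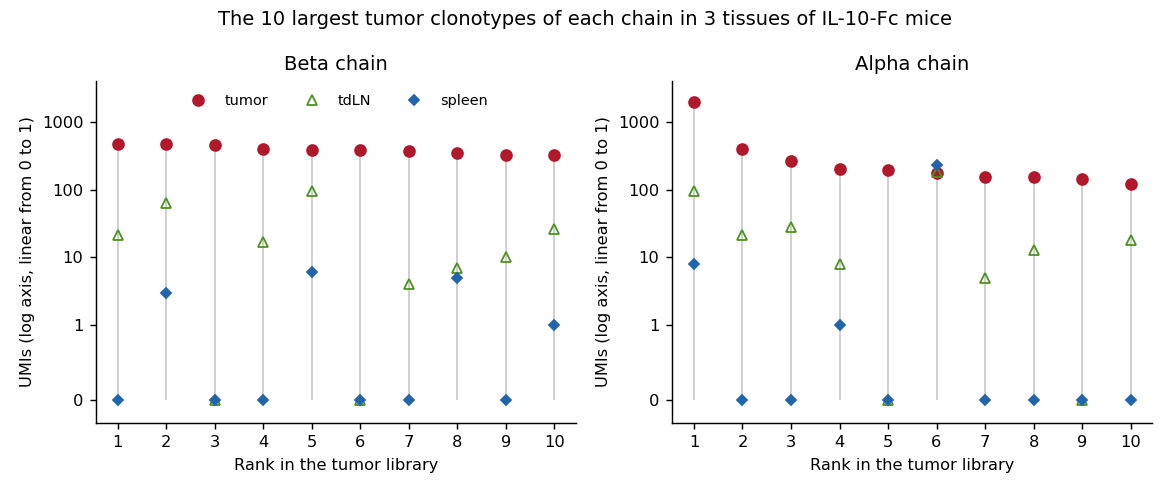
UMIs (y axis, log scale, linear between 0 and 1) of the 10 largest tumor clonotypes of each chain, by rank in the tumor (x axis), in the tumor (red), tdLN (green) and spleen (blue) libraries of the IL-10-Fc mice. Of the 10 β clonotypes 4 and of the 10 α clonotypes 3 have a spleen UMI, and α rank 6, the Trav14-Traj22 clonotype, is the only one with more UMIs in spleen (232) than in tumor (176).

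The γδ chains, few as they were, differed in their V regions. Trgv2 took 67.9% of tumor (65.1% to 70.5%) and 37.4% of spleen TRGC UMIs (34.0% to 41.0%), and the other 3 spleens held 40.8% to 45.4%. Trgv5 joined to Trgj1 had 61 of 1143 tumor UMIs (5.34%) and 5 of 737 in spleen (0.678%), and Trdv4 joined to Trdj2 had 39 of 873 (4.47%) and 1 of 1228 (0.0814%). Such chains are found paired in the γδ T cells of the skin epidermis. Both chains were higher in each of the 4 tumors than in the spleen of the same treatment. Trgv6 joined to Trgj1, another chain of epithelial γδ T cells, was not higher, at 3.24% in tumor and 3.53% in the IL-10-Fc spleen. Trgv7 took 1.84% (1.20% to 2.79%) and 0.950% (0.461% to 1.95%), on 21 and 7 UMIs. Trgv1 and Trgv4, common among spleen γδ T cells, took 4.37% and 4.90% in tumor and 9.91% and 8.01% in spleen.

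The largest γ clonotype of the tumor, with Trgv2 and Trgj2, had 90 tumor and 3 spleen UMIs, and that of the spleen, with the same segments, had 18 in spleen and 76 in tumor. The largest δ clonotype of the tumor, with Trdv4 and Trdj2, had 28 tumor and 1 spleen UMI and was in all 12 libraries, with 2374 UMIs in the IL-10-Fc tdLN. The largest of the spleen, with Trdv2-2 and Trdj1, had 7 UMIs there and was in no other library.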

How the data were processed

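RNA of CD8+ cells was made into QIAseq Immune Repertoire RNA libraries, in which each RNA molecule carries a 12-base UMI. The authors deposited, per clonotype, UMI counts with at least 3 and at least 7 reads per UMI, without normalization. The deposited fraction of a clonotype equals its UMIs with at least 3 reads over their total in the library and chain. The genome build mm10 is named in the submitters' processing notes. Clonotypes were assigned in the analysis portal of the kit's maker, and its version, its error correction and the filters it applied are not given in the sources used here.

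From these counts, shares of UMIs with at least 3 reads were computed for segments with at least 100 UMIs over both libraries, with Trav copies merged to their subgroup number. Wilson intervals are at 95% and the floor was 3 UMIs, which is 0.00231% of tumor and 0.00180% of spleen TRBC UMIs. UMIs limit the effect of PCR duplicates, and intervals cover counting error only, except those of ratios of mean clonotype size. Called segments had one share at least 25% above the other and a tumor share outside the 4 spleens. Presence at equal UMIs was computed as an expectation without drawing. Intervals on ratios use the delta method on the log scale, and for mean clonotype sizes they rest on the variance between clonotypes. Untemplated bases were counted against germline segments of GRCm38, with segments taken to their recombination signal, so they are an upper bound where an allele differs. Each run ends at its first mismatch, so a single differing base inside V or J also raises the count. Clonotypes with an undetermined residue (28 TRAC and 63 TRBC in tumor) were left out of lengths.

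The named segments are those called, those with the largest ratios (up to 5 a direction) and differences (3 a direction) and the leading V; the named clonotypes are the 10 largest in tumor, the 5 largest with and without a match, the 5 largest in spleen, the marker chains and the largest γ and δ clonotypes. The members and lists were chosen with earlier results of these data known. Alternatives were clonotypes in place of UMIs, UMIs with at least 7 reads, a ratio of 1.5, other definitions of a clonotype, at least 2 UMIs, leaving out the 10 largest clonotypes and, chosen after seeing the data, the largest of each segment. The steps were tested on simulated data. Tables were computed in Python 3.11.15 with pandas 2.3.3 and numpy 2.4.6, with functions of scipy 1.17.1, and plotted with matplotlib 3.10.9.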

Additional observations from a re-analysis of the deposited data

Results flagged for a closer look

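Among the segments named by the rule whose interval of the ratio left out 1, Trbj1-4 moved one way in the IL-10-Fc mice and the other way in the mice of each other treatment. It took 6.26% of tumor and 5.87% of spleen TRBC UMIs in the IL-10-Fc mice, a difference of 0.387 points. In the control IgG, αCSF1R and BF10 mice the tumor was lower than the spleen, by -1.44, -2.86 and -0.396 points. With 1 library per treatment and tissue the difference between treatments was not tested. The Trbv26-Trbj1-4 clonotype of 453 UMIs held 5.57% of the Trbj1-4 UMIs of the IL-10-Fc tumor, and by clonotypes the share was 5.91% in tumor and 5.89% in spleen. Trbv30, Trbv13-2, Trbv14 and Traj56, by at most 0.0792 points (Trbv13-2), were also higher in tumor in the IL-10-Fc mice alone, and Traj2 was lower in them alone, by -0.0727 points.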

How the results depend on the processing

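No paired analysis was possible because each tissue had 1 library, so that a single pair leaves no spread to test against. The count of called β J segments was 0 under each alternative. The count of β V segments was 0 except with no minimum of UMIs per segment, where 2 rare ones, Trbv21 and Trbv22, were lower in tumor. The single α V call was lost by clonotypes (0), at a ratio of 1.5 (0) and without the largest clonotype of each segment (0). With V regions as deposited 9 of 112 were called, 8 of them higher in tumor, and at 7 reads the call was Trav7 in place of Trav11. The 4 α J calls became 1 by clonotypes (Traj58), 1 at a ratio of 1.5 (Traj7) and 2 without the largest clonotype of each segment (Traj5 and Traj58). The Traj53 ratio turned to 0.985 by clonotypes. The α length difference was 0.00896 residues without the 10 largest clonotypes and -0.0198 at 7 reads.

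The share of β clonotypes with a match was 6.85% by nucleotide CDR3, 25.6% by amino acid CDR3, 3.22% with at least 2 UMIs, 3.35% at 7 reads and 8.04% by UMIs. For α the same settings gave 25.6%, 41.4%, 11.6%, 9.21% and 22.4%. The excess over the other spleens stayed above 1 in each setting, at 1.16 (β, amino acids), 1.92 (β, UMIs), 1.11 (α, amino acids), 1.13 (α, at least 2 UMIs) and 1.10 (α, 7 reads). The α size ratio was 2.51 by amino acids. Matched CDR3s had fewer untemplated bases in each setting, with -2.29 (β, by UMIs), -1.73 (α, at least 2 UMIs) and, as CDR3 length in bases, -2.09 (β) and -0.724 (α). The cause of these shifts was not tested. Depth limits the match: most clonotypes had 1 to 4 UMIs, so a clonotype without a match may be in the spleen below detection.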
